A study of Mus musculus with 6 samples.

Results

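The genes described here serve the calcium feedback and the protein traffic of the photoreceptor outer segment: the guanylate cyclases Gucy2e and Gucy2f, their activators Guca1a and Guca1b, the cyclase partner Rd3, the calcium sensor Rcvrn, the opsin kinase Grk1, and the chaperones or carriers Aipl1, Unc119 and Pdc. The members were all array probes whose only gene symbol in the annotation was one of these 10, which gave 17 probes of the 45281 on the array, and 10 genes of 19057. RNA came from the central retina of rd1/rd1 mice (written rd/rd in the sample titles), given no treatment, at 2 months (3 samples) and at 8 months (3 samples), and was measured on Illumina bead arrays, where each probe is a short DNA sequence and its brightness reports the RNA that binds it. Both ages carry the rd1 allele of Pde6b, which codes for the rod phosphodiesterase beta subunit and whose mutation leads to the loss of rods and then of cones, and no unaffected retina was compared. Each sample pooled 3 to 6 punches with a diameter of 1.5 mm and, as the series design states, was independent of the others. Neither the number of animals in a pool nor their sex is stated by the labels, so p-values measure the spread between these pools.

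In light, a photoreceptor breaks down cGMP, its cation channels close and its calcium falls. The guanylate cyclases of the outer segment then restore cGMP: their activators (GCAP1 from Guca1a, GCAP2 from Guca1b) inhibit them when they hold calcium and stimulate them when they do not. Rd3 binds the cyclases and is needed for their delivery to the outer segment. Recoverin, from Rcvrn, holds back the opsin kinase Grk1 while calcium is high. Aipl1 is a chaperone needed for folded phosphodiesterase, Unc119 carries the acylated alpha subunit of transducin, and phosducin, from Pdc, binds the beta and gamma subunits of transducin.

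Promoter sequences from RefSeq (GRCm38.p6, 250 bases before to 50 after the gene start, gene strand, 5′ to 3′) were matched for 8 of the 10 genes, in 11 windows. Guca1b and Rcvrn had no entry in the table used. The windows of Guca1a (chr17:47400557-47400856, minus strand), Aipl1 (chr11:72037460-72037759, minus strand) and Pdc (chr1:150319167-150319466, plus strand) are shown because these were the 3 genes whose values at 8 months all lay below those at 2 months. Capitals mark the motif TAATCC or its reverse complement GGATTA, the core letters known to be bound by the photoreceptor factor Crx.
Guca1a: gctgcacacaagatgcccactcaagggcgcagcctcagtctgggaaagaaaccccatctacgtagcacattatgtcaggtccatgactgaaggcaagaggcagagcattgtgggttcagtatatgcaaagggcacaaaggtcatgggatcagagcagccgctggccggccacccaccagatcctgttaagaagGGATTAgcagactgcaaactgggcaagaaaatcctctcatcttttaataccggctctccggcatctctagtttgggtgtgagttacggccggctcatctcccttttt
Aipl1: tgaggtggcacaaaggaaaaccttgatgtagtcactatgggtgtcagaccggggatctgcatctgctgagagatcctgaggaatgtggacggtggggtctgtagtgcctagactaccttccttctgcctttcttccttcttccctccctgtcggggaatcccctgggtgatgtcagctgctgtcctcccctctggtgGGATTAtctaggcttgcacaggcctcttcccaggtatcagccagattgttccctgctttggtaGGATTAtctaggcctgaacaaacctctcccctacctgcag
Pdc: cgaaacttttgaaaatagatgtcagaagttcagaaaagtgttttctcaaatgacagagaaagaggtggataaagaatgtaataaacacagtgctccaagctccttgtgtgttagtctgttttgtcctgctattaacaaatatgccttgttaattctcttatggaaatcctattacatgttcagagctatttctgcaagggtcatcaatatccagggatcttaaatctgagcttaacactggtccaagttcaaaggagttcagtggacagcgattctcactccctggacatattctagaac
In Guca1a the match began 57 bases before the gene start, and Aipl1 held 2 matches, 53 bases before and at base 11 after it. Searched on both strands, the motif stood in 5 of the 11 windows, those of Gucy2e, Gucy2f, Guca1a and Aipl1 and 1 of 3 of Unc119, and in 7.06% of all 32851 windows of this length. A match is a description of letters and not a binding site. Crx itself was at 11.5 ± 0.149 at 2 months and 11.3 ± 0.128 at 8 months (SD, n = 3).

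Values are the deposited log2 values, which ran from 6.98 to 14.5 with a median of 7.19 on each array. Levels near that median are close to background, and differences there are compressed. Probes were kept if they lay above their array's median in at least 3 of the 6 samples, and each gene was represented by its brightest kept probe, which left 12046 genes. Of the members, 12 of 17 probes and 7 of 10 genes were kept. Each of the 7 exceeded the array median on at least 5 arrays, so none entered through 1 age alone. Changes are 8 months minus 2 months, tested with limma and adjusted by Benjamini-Hochberg over all genes, with a threshold of 0.05. The samples held retinal RNA at both ages: the 9 markers of the retina as a whole on the array were all kept and had a median change of 0.04, with 3 negative and 6 positive changes and 0 calls by limma. At an unadjusted p below 0.05, Slc32a1, the vesicular transporter of inhibitory transmitters, was higher at 8 months (change 0.13, SE 0.046) and Glul, the glutamine synthetase of Müller glia, lower (−0.20, SE 0.0842), and for neither did the ages overlap.

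The cyclase probes lay at background. The probe of Gucy2f, the second retinal guanylate cyclase, lay at 7.06, 7.11 and 7.05 at 2 months and at 7.07, 7.12 and 7.00 at 8 months, below the array median in every sample. The brighter of the Gucy2e probes lay at 7.16, 7.15 and 7.32 at 2 months and 7.21, 7.17 and 7.19 at 8 months. It exceeded the median on 2 arrays, and the other Gucy2e probe on none. In the fit with no filter the changes were −0.02 (SE 0.0513) for Gucy2e and −0.01 (SE 0.0403) for Gucy2f. At these levels a difference between the ages was not detectable, and a dim probe does not by itself show that its RNA was absent.

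Of the cyclase activators, Guca1a was well above background at 2 months and lower at 8 months, while Guca1b was at background. Guca1a lay at 10.25, 10.08 and 9.35 at 2 months and at 8.36, 8.61 and 7.50 at 8 months. Every 8 month sample was below every 2 month sample, with 2 month replicate 3 the lowest of its age and 8 month replicate 3 the lowest of all. The means were 9.89 ± 0.483 and 8.15 ± 0.583 (SD, n = 3), a change of −1.74 (SE 0.326, 95% interval −2.50 to −0.98), or 3.34-fold lower. This difference, the widest of the 7 tested members, did not pass over all genes (limma adjusted p = 0.129, unadjusted p = 0.00094). Guca1b, whose GCAP2 protein serves mainly rods in mice, lay at 7.24, 7.29 and 7.26 at 2 months and 7.28, 7.17 and 7.22 at 8 months. The ages overlapped, and its change was −0.04 (SE 0.0496, limma adjusted p = 0.879). In a bulk sample, fewer cells of a type and less RNA per cell cannot be told apart.

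Rd3, the cyclase partner, was well above background and differed little between the ages. Its brightest probe lay at 8.95, 8.90 and 9.00 at 2 months and 8.71, 9.05 and 8.95 at 8 months, and the highest and the lowest value both came from the older samples. The change was −0.05 (SE 0.0892, 95% interval −0.26 to 0.16, limma adjusted p = 0.923). That interval does not reach the interval of Guca1a, although the difference between these genes was not tested. The other Rd3 probes were dim, at 7.15 to 7.32 and at 7.09 to 7.14, with changes of 0.01 and 0.003.

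Rcvrn, which in the mouse retina is also made by some OFF cone bipolar cells, lay at 7.69, 7.70 and 7.42 at 2 months and 7.25, 7.42 and 7.25 at 8 months. The ages overlapped only where 8 month replicate 2 matched 2 month replicate 3, at 7.421 and 7.417. Its change was −0.30 (SE 0.0914, 95% interval −0.51 to −0.08), with an unadjusted p of 0.0132 and an adjusted p of 0.311 (limma). Its partner Grk1, the kinase that phosphorylates opsins of rods and, in mice, of cones, was below the array median in every sample. It lay at 7.15, 7.17 and 7.15 at 2 months and 7.09, 7.18 and 7.10 at 8 months, a change of −0.03 (SE 0.0342) in the fit with no filter.

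Aipl1, the phosphodiesterase chaperone, lay at 9.58, 9.51 and 8.92 at 2 months and 8.11, 8.51 and 8.03 at 8 months. The ages did not overlap, and replicate 3 was again the lowest sample at each age. The means were 9.33 ± 0.361 and 8.22 ± 0.257 (SD, n = 3), a change of −1.12 (SE 0.194, 95% interval −1.57 to −0.67), or 2.17-fold lower. It had the smallest p of the members but did not pass over all genes (limma adjusted p = 0.104, unadjusted p = 0.000581). A second, dimmer Aipl1 probe lay at 7.86, 7.94 and 7.56 at 2 months and 7.37, 7.25 and 7.20 at 8 months, again with no overlap, and had a change of −0.52 (SE 0.102).

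Pdc, the phosducin gene, was dim and had 3 probes with nearly the same change. The brightest lay at 7.97, 8.06 and 7.52 at 2 months and 7.39, 7.43 and 7.18 at 8 months. No 8 month value reached a 2 month value, and 8 month replicate 3 was at the level of the array median. The change was −0.52 (SE 0.142, 95% interval −0.85 to −0.18, limma adjusted p = 0.259), or 1.43-fold lower, and the other probes had changes of −0.51 and −0.52. The probes read the same samples and are not replicates of each other.

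Unc119, the carrier of acylated transducin, was well above background and differed little between the ages. Its brighter probe lay at 10.43, 10.74 and 10.48 at 2 months and 10.34, 10.44 and 10.50 at 8 months, with overlapping ages. The change was −0.12 (SE 0.0895, 95% interval −0.34 to 0.08, limma adjusted p = 0.726), and the second probe had a change of −0.17 (SE 0.0901). Unc119 is also made outside photoreceptors, and which cells gave its signal here was not tested.

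**Figure D1:**
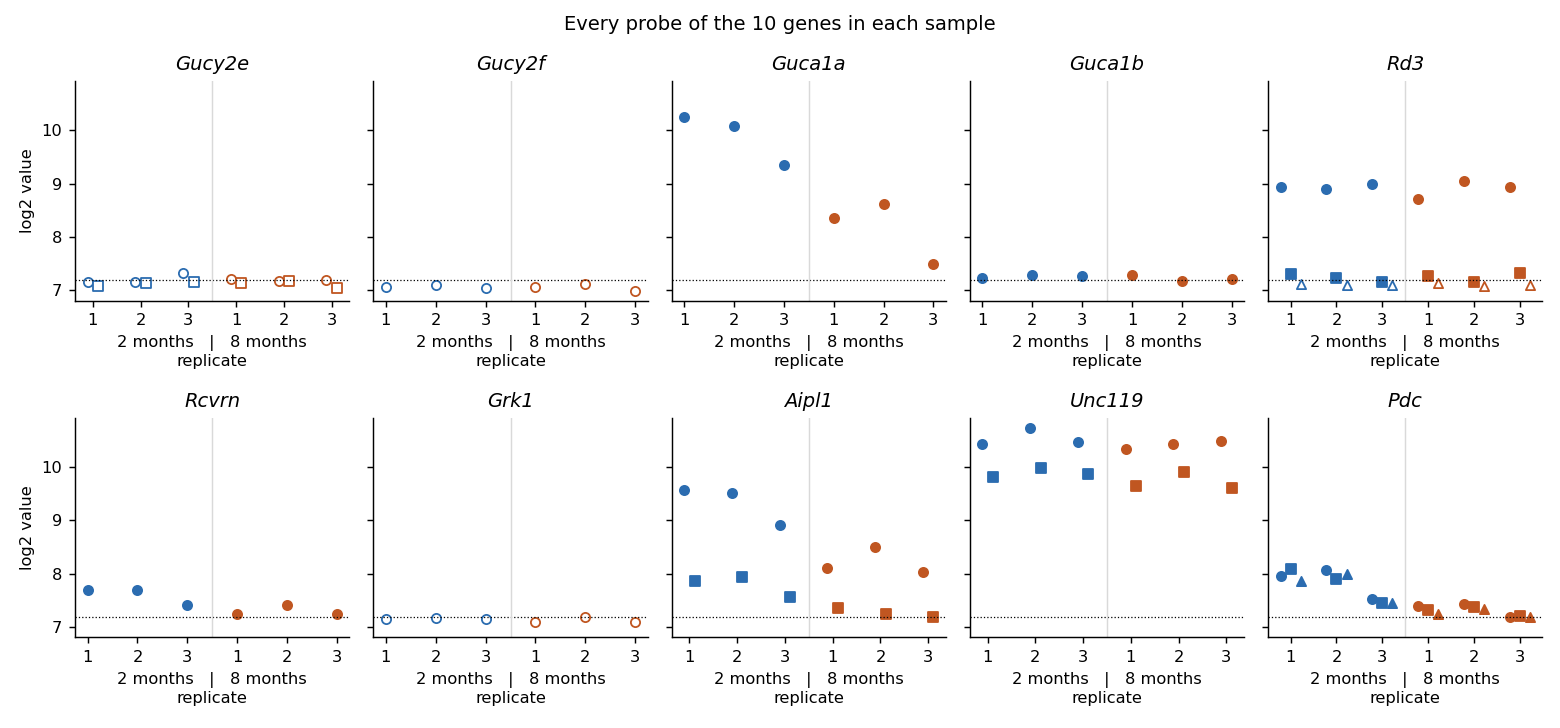
Log2 value (vertical axis) of each probe of the 10 genes in each of the 6 samples (horizontal axis: replicates 1 to 3 at 2 months in blue, then at 8 months in orange); marker shapes separate probes of a gene, open markers are probes that were not kept and the dotted line is the array median of 7.19. Guca1a, Aipl1 and Pdc lie lower in every 8 month sample, Rd3 and Unc119 stay at a like level, and Gucy2e, Gucy2f, Guca1b and Grk1 lie at the dotted line.

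No member passed the threshold: 0 of 7 tested members were lower and 0 higher by limma, where 0.0664% and 0.158% of all tested genes were called in those directions. At an unadjusted p below 0.05, 4 members were lower (Aipl1, Guca1a, Pdc and Rcvrn) and 0 higher, against 5.34% and 5.1% of all genes. The ages did not overlap, with the older samples lower, for 3 of 7 members and for 7.59% of all genes. With the older samples higher, it held for 0 members and 7.45% of all genes. All 7 changes were negative, against 49.8% over all genes, and their median was −0.30 where that of all genes was 0.000482. With every kept probe as its own test, 0 of 12 member probes were called lower by limma (background 0.0134%), 7 had an unadjusted p below 0.05 (background 4.44%) and 6 did not overlap between the ages (background 6.61%). These 6 were the probes of Guca1a, Aipl1 and Pdc, with changes from −1.74 to −0.51. Several probes share a gene, and the members were chosen with earlier results known.

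**Figure D2:**
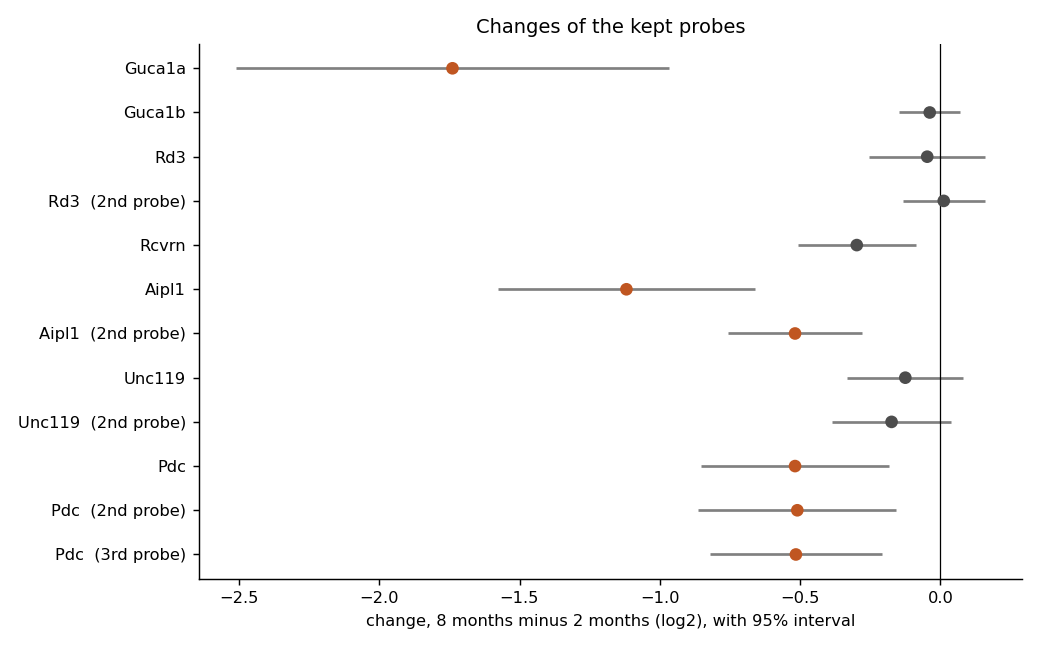
Change from 2 to 8 months on the log2 scale (horizontal axis) of the 12 kept member probes (vertical axis), with limma's 95% interval from the fit on single probes; orange points are probes whose ages did not overlap. The intervals of Guca1a, Aipl1, Pdc and Rcvrn lie below 0, and those of Guca1b, Rd3 and Unc119 include it.

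The samples of 1 age were not alike. In all 6 non-overlapping probes the lowest 2 month value was in replicate 3 and the lowest 8 month value in replicate 3. Centred on the 6 samples, the mean level of the 7 members was 0.37, 0.40 and 0.06 in the 2 month samples and −0.30, −0.12 and −0.41 in the 8 month samples. Eif2s3y, a Y-linked gene chosen after its values were seen and not kept by the filter, was at 7.79 and 8.27 in 2 month replicates 1 and 2. In the other samples it was at 7.10 to 7.18. The brightest probe of Xist, a transcript of female cells, was at 9.40 and 8.73 in those 2 replicates and at 10.48 to 11.10 in the others. The samples that were highest for the members were thus also those with Y-linked signal and the least Xist. With 2 month replicate 3 alone against the 8 month samples, a comparison added after seeing the data in which that lone sample is assumed to vary like the others, the changes were −1.19 (SE 0.401) for Guca1a, −0.70 (SE 0.188) for Aipl1 and −0.19 (SE 0.115) for Pdc. Replicate 3 was the lowest 2 month sample for these genes, so changes nearer 0 than in the main fit were fixed in advance. The part of sex in the members' changes was not tested.

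Signals of neighbouring tissue also differed between the samples. All 3 tested red blood cell genes had negative changes, with mean levels of 0.29 to 1.71 at 2 months and −0.86 to −0.78 at 8 months relative to all samples, and the ages did not overlap. Of 12 pigment epithelium genes 11 had negative changes, with levels of −0.04 to 0.62 at 2 months and −0.61 to −0.01 at 8 months, lowest in 8 month replicate 3. All 7 skeletal muscle genes had negative changes, with levels of −0.38 to 1.14 and −0.43 to −0.25. Among them Pvalb lay at 11.32 to 11.71 in every sample, also where Myl1 lay at only 7.14 to 7.52. Whether the Pvalb signal came from muscle was not tested. Of 11 lens genes 10 had negative changes, with levels of −0.07 to 0.44 and −0.37 to 0.23, and neither of the 2 pineal enzymes on the array, listed because the pineal gland also makes phosducin, was kept. With the red blood cell level as a covariate the changes were −1.34 (SE 0.68) for Guca1a, −0.74 (SE 0.383) for Aipl1 and −0.10 (SE 0.245) for Pdc, and with the pigment epithelium level −1.33 (SE 0.391), −0.98 (SE 0.262) and −0.34 (SE 0.17). None of these 3 genes passed in these fits, with adjusted p from 0.663 to 0.984 (limma). Of all 12046 genes, the red blood cell fit called 0 lower and 0 higher, and the pigment epithelium fit 0 and 2. The red blood cell level itself separated the ages, and the SE of Guca1a was 0.326 without this covariate. That fit therefore cannot tell the red blood cell level from age. With the red blood cell covariate, the change of Rcvrn was −0.09 (SE 0.176) and that of Rd3 −0.12 (SE 0.191). Those of Guca1b and Unc119 were positive in that fit, at 0.01 (SE 0.108) and 0.22 (SE 0.122). The part of these signals in the members' changes was not tested further. Bipolar cell markers, which neighbour photoreceptors in the circuit, had a median change of −0.07 over 8 genes, 6 of them negative, and mean levels of −0.08 to 0.06 in all samples. By limma 0 passed over all genes, and 2 were lower at an unadjusted p below 0.05, Prkca at −0.21 (SE 0.0782, ages not overlapping) and Isl1 at −0.17 (SE 0.0677).

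Among the partners of these proteins, the phosphodiesterase and channel genes and the opsin, transducin and arrestin genes had mean levels that were likewise highest in 2 month replicates 1 and 2 and lowest in 8 month replicate 3, while the carriers of lipid-modified proteins lay between −0.06 and 0.08 in all samples, lowest in 2 month replicate 2. Of 10 tested genes of the cGMP and calcium machinery (phosphodiesterase subunits, cation channels and exchangers), 0 passed over all genes by limma, and 5 were lower and 0 higher at an unadjusted p below 0.05, with a median change of −0.17. Pde6g, the inhibitory subunit of the rod enzyme, had a change of −1.35 (SE 0.183). Pde6c, the catalytic subunit of the cone enzyme, lay at 10.73, 10.71 and 9.61 at 2 months and 8.54, 8.54 and 7.68 at 8 months, and Pde6h, its inhibitory subunit, had a change of −2.47 (SE 0.458). Of 11 tested opsin, transducin and arrestin genes, 2 fell, Arr3 and Gnat2 (limma adjusted p = 0.00936 and 0.0169), and 0 rose, with a median of −0.30. Of 12 tested carriers of lipid-modified proteins none passed by limma, and 2 were lower and 1 higher at an unadjusted p below 0.05. Among them Pde6d, a carrier of prenylated proteins, had a change of −0.26 (SE 0.0597), Unc119b, the paralogue of Unc119, one of −0.20 (SE 0.0612) and Arl2, a small GTPase that releases such cargo, one of 0.39 (SE 0.139). Their median was −0.02. Photoreceptor transcription factors (5 tested) had a median of −0.08, with 0 called by limma and 1, Nrl, higher at an unadjusted p below 0.05.

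**Figure D3:**
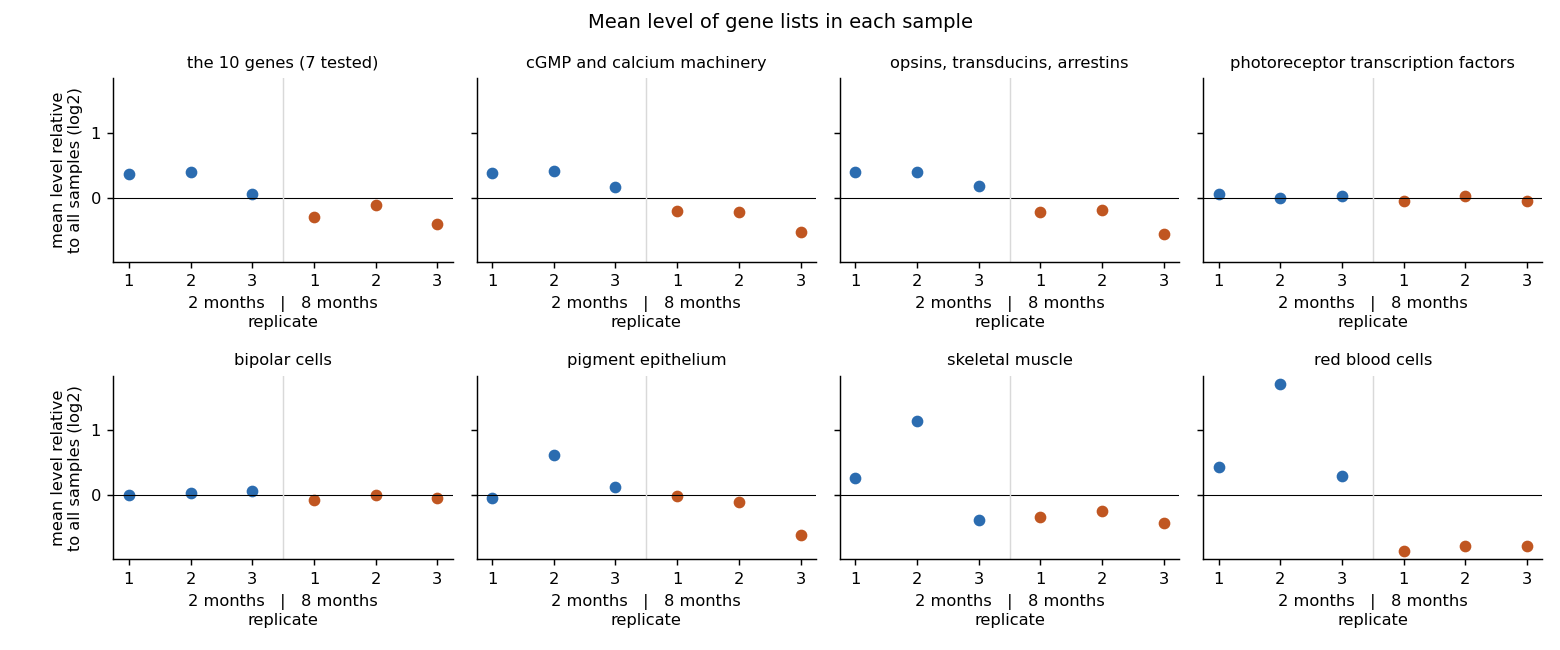
Mean log2 level of the tested genes of 8 lists in each sample (replicates 1 to 3 at 2 months in blue, at 8 months in orange), each gene first centred on its mean over the 6 samples. The members and both partner lists are highest in 2 month replicates 1 and 2 and lowest in 8 month replicate 3, and red blood cell and muscle genes are highest in 2 month replicate 2.

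Likeness of pattern was measured as the root mean square difference between centred log2 profiles over the 6 samples. For Guca1a, whose own profile had a root mean square of 0.973, the nearest genes were Sag, an arrestin of photoreceptors (0.167), Pde6c (0.224) and Pde6g (0.329). Which cells gave the signals of these genes was not tested. For Aipl1, at 0.615, they were Rtbdn, a retinal riboflavin-binding protein (0.111), Pcare, an actin-associated protein of the photoreceptor cilium (0.133), and Tulp1, needed for transport to the outer segment (0.154). For Pdc, at 0.317, they were Dpysl3, a cytoskeletal regulator of neurons (0.0677), Adam7, a member of the ADAM protein family (0.0712), and Rbp3, the retinoid-binding protein of the interphotoreceptor matrix (0.0854). A profile with a small spread, such as that of Pdc, is matched closely by more genes.

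The calls on Guca1a and Aipl1 turned on the processing. Both passed with the stricter filter on dim probes, which kept 7453 genes (limma adjusted p = 0.0119 and 0.00977), and with background correction of the values taken off the log scale, where their changes were −2.13 and −1.38 (limma adjusted p = 0.0263 and 0.0138). Aipl1 also passed without 2 month replicate 3, at −1.33 (limma adjusted p = 0.038). More genes were called lower in the whole series under these settings as well. The counts were 35 of 7453, 46 of 12046 and 19 of 12046 in that order, against 8 of 12046 in the main fit. Leaving out 1 sample gave changes from −2.01 to −1.41 for Guca1a, −1.33 to −1.00 for Aipl1 and −0.68 to −0.41 for Pdc.

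**Figure D4:**
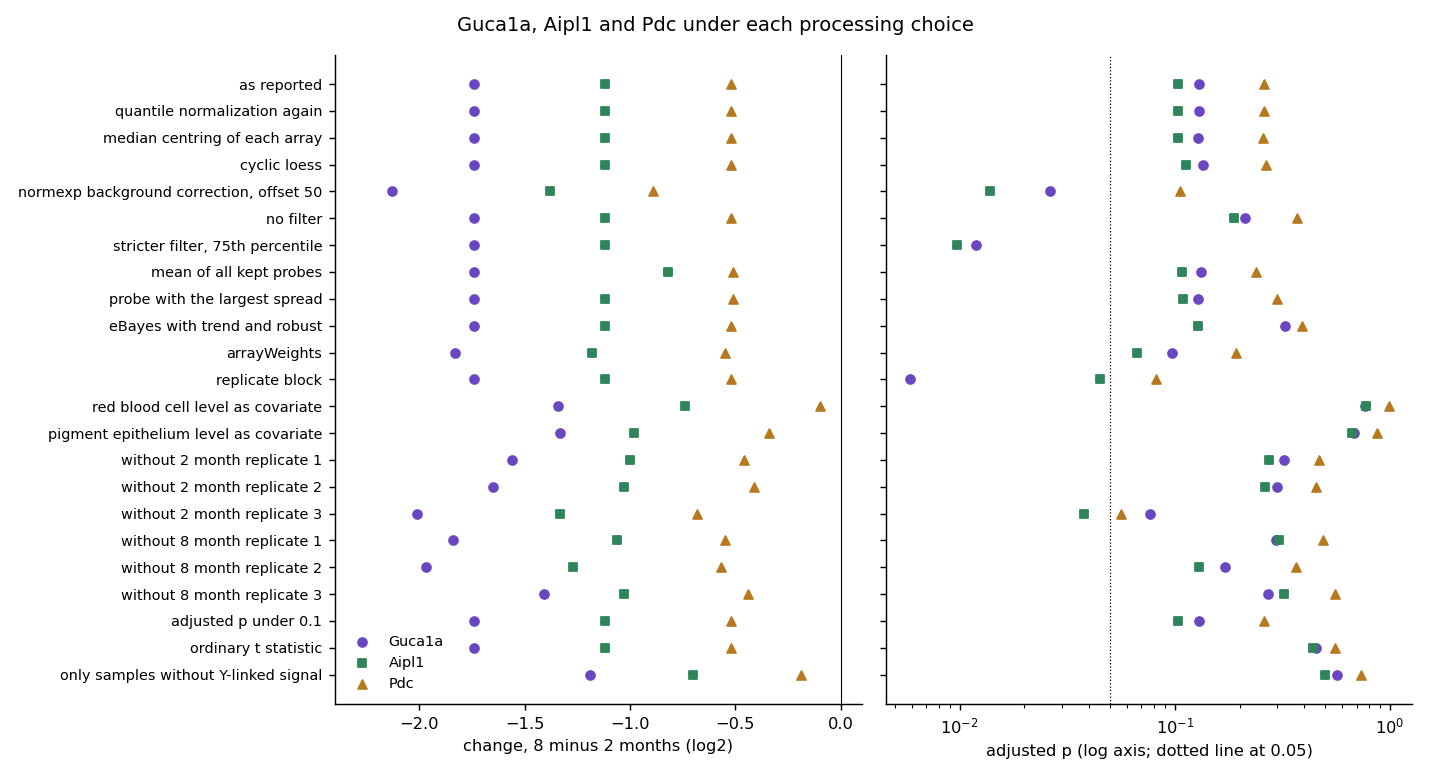
Change from 2 to 8 months (left, log2) and limma's adjusted p (right, log axis, dotted line at 0.05) of Guca1a, Aipl1 and Pdc under each processing choice, with Pdc not kept under the stricter filter. All changes are negative, with Guca1a from −2.13 to −1.19, and the adjusted p of Guca1a and Aipl1 falls below 0.05 under the stricter filter, the background correction and the replicate block.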

How the data were processed

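RNA from 6 pools of rd1/rd1 central retina was measured on Illumina bead arrays, as biotinylated cRNA per the labels' protocols. The deposited table gives 1 log2 value per probe and sample for 45281 probes, and the log2 scale was read from the range of the values. After sorting, the columns differed by at most 0.00307 at any rank, so the authors probably used a quantile-type method. Their software and background correction are not stated by the labels, and a variance-stabilising transform close to log2 is possible. Groups and replicate numbers came from the titles. At 2 months the descriptions call replicates 1, 2 and 3 of the titles 1, 1 and 2. The pair that shares a number was kept as 2 samples, since the series design states 3 independent samples per age. The pair differed in value (Hbb-bs at 11.17 and 12.38), which does not show that different animals were used. This pair, 2 month replicates 1 and 2, was also the one with Y-linked signal and the highest mean levels of the members. If these 2 samples were not independent, the p-values could be too small. The array annotation gave 1 symbol for 34885 probes, several for 18 and none for 10378.

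Dim probes were filtered at the 50th percentile of each array. Tests used limma 3.58.1 in R 4.3.3 (lmFit, eBayes), with 4 residual and 3.311 prior degrees of freedom, and were checked on simulated data. The simulated noise was independent between genes and samples, so that check does not cover sample differences shared by many genes. Standard errors and 95% intervals are limma's. Members, gene lists, the rule for named genes (all members, the 3 genes of smallest p in each list, the 3 nearest profiles) and the alternatives were chosen with earlier results of these data known. Precision is limited by having 3 arrays at each age. Same-numbered samples of the ages had deviations that correlated at 0.0239, 0.139 and 0.16, and samples of different numbers at −0.154 to 0.00198. The main fit did not pair them, since the series design states 3 independent samples per age, and a fit with the number as a block is given below.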

Additional observations from a re-analysis of the deposited data

How the results depend on the processing

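Of the 7 tested members 0 were called lower, and this count was 2 (Guca1a and Aipl1) with normexp background correction (offset 50), 2 with the stricter filter at the 75th percentile and 2 with the replicate number as a block. These settings also called more genes lower in the whole series, where the main fit called 8 of 12046. The counts were 46 of 12046 with normexp, 35 of 7453 with the stricter filter and 18 of 12046 with the block. Leaving out 1 sample gave 0 to 1 member and 0 to 3 member probes called lower, with 3 probes without 2 month replicate 3. In that last fit 19 of 12046 genes were called lower. The count of member probes called lower, 0 of 12, was 3 with normexp, 2 with the stricter filter, 1 with the trend and robust prior (the second Aipl1 probe) and 1 with the replicate block (limma). The trend and robust prior called 52 of 12046 genes lower, and counts over all probes in these fits are not given here. With that block, Guca1a and Aipl1 had adjusted p-values of 0.00586 and 0.0448 by limma. All 6 samples correlated best with the sample of their own number, a hint from the data and not from the design, the block rests on the titles where the descriptions repeat a number, and it leaves 2 residual degrees of freedom. No member was called higher under any of the 22 alternatives. The median change of the tested members, −0.30, was −0.55 with normexp, −0.09 with no filter (10 members), −0.62 with the stricter filter (4 members), −0.10 with the red blood cell covariate and −0.11 with only the samples that lack Y-linked signal, the one alternative added after seeing the data. It ranged from −0.39 to −0.25 when 1 sample was left out. Over the alternatives, the adjusted p ran from 0.00586 to 0.767 for Guca1a, 0.00977 to 0.773 for Aipl1 and 0.0565 to 0.984 for Pdc (limma), with negative changes throughout. The filters change how many genes and members are tested. The cause of the other shifts was not tested. Signal over background limits what can be said of Gucy2e, Gucy2f, Guca1b and Grk1.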

Other observations

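Relatives of the members that act outside photoreceptor feedback had median changes near or above 0. Of 10 tested calcium sensors related to recoverin, 0 passed over all genes by limma (unadjusted p below 0.05: 3 higher and 0 lower), and the median change was 0.10. Kcnip1, a calcium-binding subunit of A-type potassium channels, lay at 8.22, 8.41 and 8.40 at 2 months and 9.07, 8.78 and 9.12 at 8 months, a change of 0.65 (SE 0.1, limma adjusted p = 0.0781). Every 8 month value was above every 2 month value. Kcnip3, also known as calsenilin, had a change of 0.35 (SE 0.064) and Hpca, hippocalcin of neurons, one of 0.20 (SE 0.0698). For both the ages did not overlap, with adjusted p-values of 0.12 and 0.371 (limma). Of 8 tested guanylate cyclases and receptor kinases outside photoreceptor feedback, 0 passed at an adjusted or an unadjusted p below 0.05 by limma, and the median change was 0.01. Npr2, a natriuretic peptide receptor with cyclase activity, lay at 9.48 ± 0.0654 and 9.60 ± 0.0877 (SD, n = 3). The difference between these relatives and the members was not tested.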
